A study of Mus musculus with 9 samples.

Results

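The IL-20 subfamily described here comprises 4 ligand genes, Il19, Il20, Il24 and Il22, and 5 receptor genes, Il20ra, Il20rb, Il22ra1, Il22ra2 and Il10rb. The 9 genes were chosen by name, each was represented by 1 row of the deposited table, and all 9 were found among the 19505 named genes measured. RNA from dorsal skin of 8-week-old mice (C57BL/6J) was profiled on Affymetrix arrays after 7 days of daily 5% imiquimod cream, which activates Toll-like receptor 7 and produces a psoriasis-like dermatitis. The stretch group (IMQ+F, n = 5) carried a glued plastic device elongated by 10 mm on the first day, and the no-stretch group (IMQ+N, n = 4) received the cream without stretch. Both groups therefore had imiquimod, no array of untreated skin was analysed here, and the labels do not say whether the skin without stretch also carried the glued device. The samples are not said to come from separate mice, so each p-value rests on the spread among samples, some of which may be technical.

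IL-19, IL-20 and IL-24 are cytokines of the IL-10 family made mainly by keratinocytes and myeloid cells, whereas IL-22 comes mainly from T cells and innate lymphoid cells. IL-19, IL-20 and IL-24 bind a receptor built of the IL20RA and IL20RB chains, and IL-20 and IL-24 also bind IL22RA1 paired with IL20RB. IL-22 binds IL22RA1 paired with IL10RB, a chain shared with the IL-10 receptor, and is held back by IL22RA2, a soluble decoy. In the epidermis these receptors act through JAK kinases and STAT3, and are known to raise antimicrobial proteins and proliferation and to delay terminal differentiation.

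The medians of the 9 arrays ran from 5.81 to 5.99 (log2 expression), and the keratin gene Krt14, a marker of the labelled tissue, ranked at percentile 99.97 of all genes by mean signal. No-stretch replicate 3 resembled the other arrays least (median r across genes 0.975, against 0.980 to 0.987 for the rest), and the array weights were lowest for it and stretch replicate 1 (0.58 and 0.55). Over all genes, 48 of 19505 passed limma's test (0.246%; adjusted p under 0.05 by Benjamini-Hochberg over all genes). These arrays are bulk tissue, so fewer cells of a type and less RNA per cell cannot be told apart.

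The stretches before the gene starts of Il19, Il20ra, Il20rb and Il22ra1 were read from RefSeq promoters (GRCm38.p6), where 6 of the 9 genes were found. They are shown because the last 3 encode the chains of both IL-20 receptor types, and because Il19 had matches where the other ligand genes found, Il20 and Il22, had none. Il24, Il10rb and Il22ra2 were not among the genes found, so their promoters were not searched. Each run is the 250 bases before the start, 5′ to 3′ on the gene's own strand. Capitals mark matches to STAT (TTCNNNGAA), AP-1 (TGANTCA), C/EBP (TTGCNNAA) or the NF-kB motif, searched on both strands of the 250 bases before and 50 after each start. The runs lie at chr1:130940116-130940365 (minus strand), chr10:19712337-19712586 (plus strand), chr9:100486474-100486723 (minus strand) and chr4:135727909-135728158 (plus strand).
Il19: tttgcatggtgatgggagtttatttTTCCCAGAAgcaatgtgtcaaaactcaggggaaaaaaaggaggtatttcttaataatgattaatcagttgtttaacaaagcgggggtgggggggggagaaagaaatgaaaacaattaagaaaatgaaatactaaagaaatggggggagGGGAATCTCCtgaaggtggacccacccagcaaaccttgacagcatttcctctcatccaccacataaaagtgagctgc
Il20ra: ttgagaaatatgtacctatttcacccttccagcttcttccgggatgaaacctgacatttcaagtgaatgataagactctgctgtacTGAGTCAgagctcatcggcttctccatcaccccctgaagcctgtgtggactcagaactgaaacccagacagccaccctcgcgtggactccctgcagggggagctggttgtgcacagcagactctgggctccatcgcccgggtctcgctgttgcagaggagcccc
Il20rb: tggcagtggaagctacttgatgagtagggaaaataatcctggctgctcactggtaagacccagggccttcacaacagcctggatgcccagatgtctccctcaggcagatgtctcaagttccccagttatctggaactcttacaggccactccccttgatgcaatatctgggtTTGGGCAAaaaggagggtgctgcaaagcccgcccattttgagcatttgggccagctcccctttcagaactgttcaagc
Il22ra1: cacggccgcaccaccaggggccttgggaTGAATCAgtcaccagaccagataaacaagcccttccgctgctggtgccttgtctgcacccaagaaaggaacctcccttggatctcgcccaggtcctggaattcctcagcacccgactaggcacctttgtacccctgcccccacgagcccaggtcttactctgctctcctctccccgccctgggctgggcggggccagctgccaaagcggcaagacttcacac
In Il19 the capitals are TTCCCAGAA, which matches STAT 225 to 217 bases before the start, and GGGAATCTCC, which matches NF-kB 77 to 68 bases before it. TGAGTCA in Il20ra (164 to 158 bases before the start) and TGAATCA in Il22ra1 (222 to 216 bases before it) match AP-1. TTGGGCAA in Il20rb (78 to 71 bases before the start) matches C/EBP when read on the opposite strand. No 2 matches overlapped, and none of the 4 motifs was matched in the windows of Il20 and Il22. Among all 32851 promoters of the same length, 8.30% held the STAT letters, 7.81% AP-1, 10.8% C/EBP and 4.51% NF-kB, so single matches are common. The 3 receptor genes shared no motif among all 3; the matches describe the letters only.

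None of the 9 genes passed the test with stretch, against the 0.246% of all genes that did, and in each of the 9 the groups overlapped on at least 1 array, where 4.54% of all genes did not overlap. Without adjustment, limma's 95% confidence interval of the log2 change excluded 0 for 3 of the 9, against 13.0% of all genes. These were Il24, whose interval lay above 0 (as in 6.92% of all genes), and Il20ra and Il20rb, whose intervals lay below 0 (as in 6.07%). The same fit with a trended, robust variance and with array weights also called 0 of the 9.

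**Figure D1:**
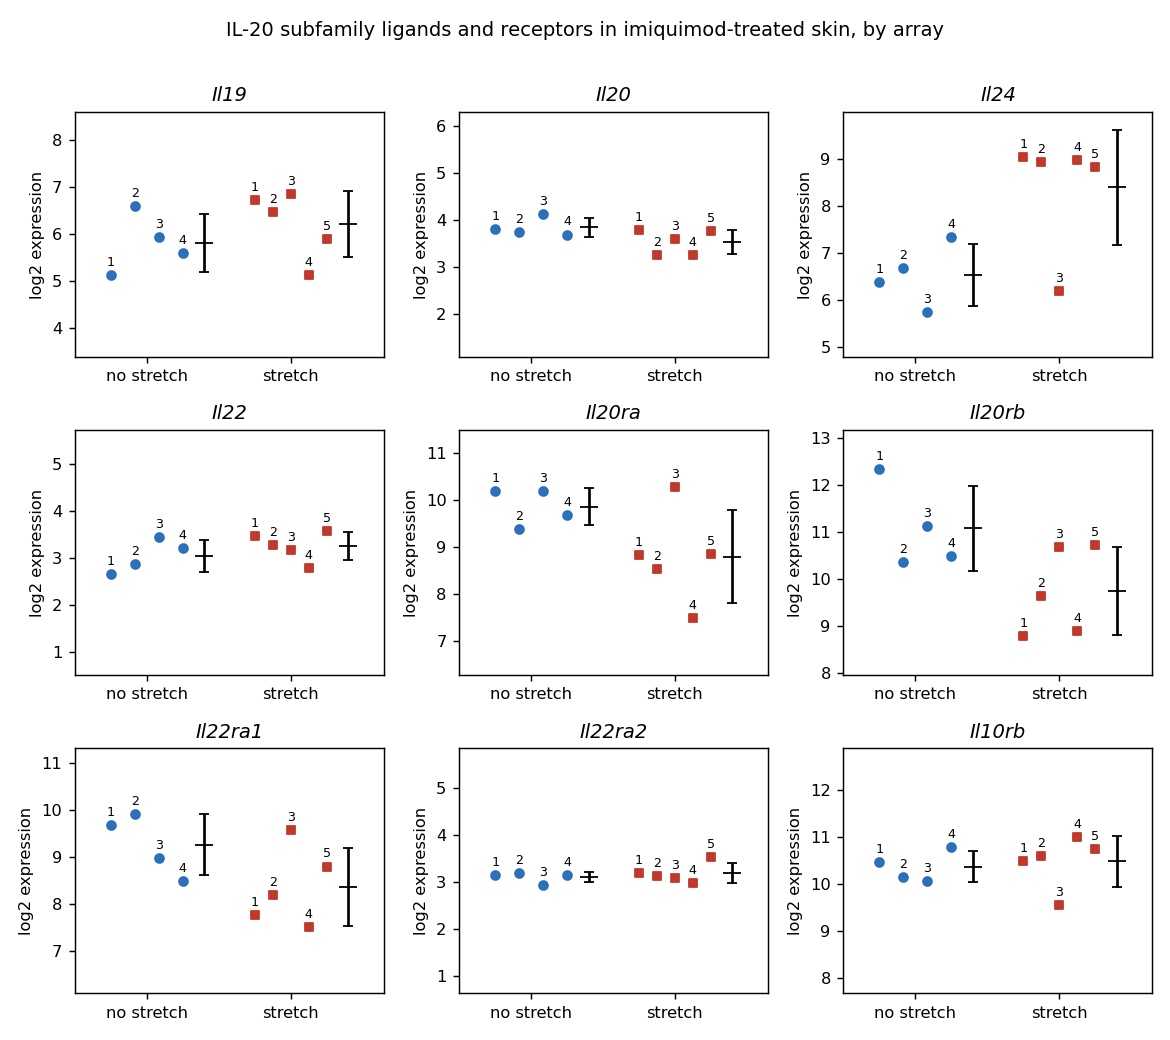
Log2 expression (vertical axes, each spanning the same number of log2 units) of the 4 ligand and 5 receptor genes on each array, without stretch (blue circles) and with stretch (red squares); small digits are replicate numbers, and the black line and bars give the mean and SD. Il24 lies above 8.8 on 4 of the 5 stretched arrays and at 6.20 on stretch replicate 3.

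Among the ligands, Il24, which signals through both IL-20 receptor types, differed most. With stretch it stood at 9.03, 8.94, 6.20, 8.98 and 8.82 in replicates 1 to 5, and without stretch at 6.38, 6.68, 5.75 and 7.33 in replicates 1 to 4. Thus 4 stretched arrays lay close together above every array without stretch, and stretch replicate 3 lay among the latter. The group values were 8.39 ± 1.23 (SD, n = 5) and 6.53 ± 0.66 (SD, n = 4), a log2 difference of 1.86 (95% interval 0.66 to 3.06), or 3.63-fold, with limma adjusted p = 0.19. Without stretch replicate 3 the log2 change was 2.41 (95% interval 1.78 to 3.04), and Il24 passed the test (limma adjusted p = 0.0065, where 0.523% of all genes passed as higher). That is the 1 array whose omission decides the call. Without any other single array the change stayed between 1.60 and 2.13 and did not pass. Stretch replicate 3 held the lowest Il24 of its group, so the call without it follows from leaving out the contrary value. Its likeness to the other arrays (median r 0.984) and its array weight (0.76) gave no ground for leaving it out.

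Il19, whose product binds the IL20RA/IL20RB receptor alone, varied as widely within the groups as between them. It was at 6.73, 6.47, 6.86, 5.14 and 5.90 on the stretched arrays and at 5.15, 6.60, 5.96 and 5.60 on those without stretch. The highest and the lowest of all 9 arrays, stretch replicates 3 and 4, both belonged to the stretch group. The log2 change was 0.39 (95% interval -0.42 to 1.21; limma adjusted p = 0.69). Stretch replicate 3 thus had the highest Il19 and the lowest Il24 of the stretched arrays.

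Il20, the ligand of both IL-20 receptor types that gives the family its name, had low signal throughout, at percentile 22.2 of all genes. It was at 3.79, 3.27, 3.61, 3.26 and 3.78 with stretch and at 3.82, 3.75, 4.14 and 3.70 without. All 5 stretched arrays lay below the mean without stretch, with the groups overlapping, and the log2 change was -0.31 (95% interval -0.70 to 0.08; limma adjusted p = 0.50). Il22, the ligand of the IL22RA1/IL10RB receptor, lay lower still, at percentile 12.2. It was at 3.46, 3.28, 3.16, 2.79 and 3.58 with stretch and at 2.65, 2.88, 3.44 and 3.20 without, and the groups overlapped over most of their range. Its log2 change was 0.21 (95% interval -0.26 to 0.68; limma adjusted p = 0.72). Iltifb, a near-identical copy of Il22 in this strain listed as a separate gene, had a log2 difference of -0.07 (95% interval -0.59 to 0.46). The array may not separate the copies. Scanner detection calls were not analysed here, so these values do not show that Il20, Il22 or Iltifb lay above background.

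**Figure D2:**
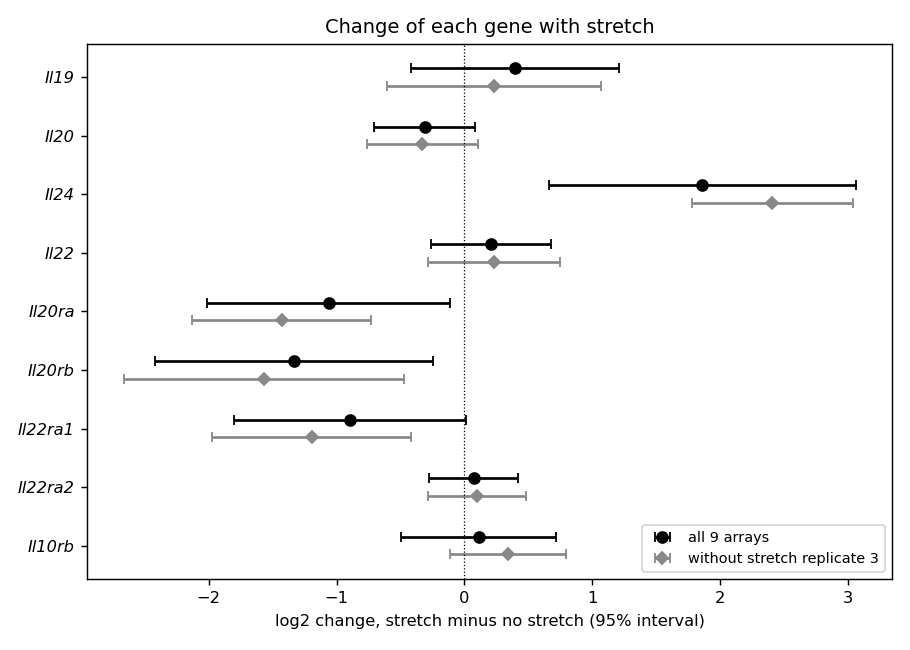
Log2 change of each gene, stretch minus no stretch, with limma's 95% confidence interval, over all 9 arrays (black circles) and without stretch replicate 3 (grey diamonds), the stretched array of lowest Il24. The interval of Il24 lies above 0 in both, those of Il20ra and Il20rb lie below 0 in both, and that of Il22ra1 lies below 0 only without this array.

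Among the receptors, the 3 genes for the chains of both IL-20 receptor types, Il20ra, Il20rb and Il22ra1, all had lower means with stretch. Il20ra, the chain that IL-19 requires, was at 8.84, 8.54, 10.27, 7.50 and 8.85 with stretch and at 10.20, 9.39, 10.19 and 9.69 without. Stretch replicates 1, 2, 4 and 5 lay below every array without stretch, and stretch replicate 3 was the highest of all 9. The group values were 8.80 ± 0.99 (SD, n = 5) and 9.86 ± 0.40 (SD, n = 4), a log2 difference of -1.06 (95% interval -2.01 to -0.11), or 2.09-fold lower, with limma adjusted p = 0.33. Without stretch replicate 3 the change was -1.43 (limma adjusted p = 0.065) and without stretch replicate 4 it was -0.74 (limma adjusted p = 0.50). These were the ends of the range of Il20ra over single arrays left out, and the gene passed in neither.

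Il20rb, the chain common to both IL-20 receptor types, was at 8.79, 9.64, 10.69, 8.89 and 10.72 with stretch and at 12.33, 10.36, 11.13 and 10.49 without. Stretch replicates 1, 2 and 4 lay below every array without stretch, while replicates 3 and 5 lay within the other group. The group values were 9.75 ± 0.93 (SD, n = 5) and 11.08 ± 0.90 (SD, n = 4), a log2 difference of -1.33 (95% interval -2.42 to -0.24), or 2.51-fold lower, with limma adjusted p = 0.28. The highest of the 9 arrays was no-stretch replicate 1, and leaving it out gave a log2 difference of -0.91 (limma adjusted p = 0.51).

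Il22ra1, the chain that IL-22 shares with IL-20 and IL-24, was at 7.78, 8.18, 9.57, 7.51 and 8.80 with stretch and at 9.67, 9.91, 8.97 and 8.49 without. The same stretch replicates 1, 2 and 4 lay below every array without stretch. Its log2 change was -0.89 (95% interval -1.80 to 0.01; limma adjusted p = 0.39), or 1.86-fold lower.

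The other receptor genes showed no comparable shift of the mean. Il10rb, the chain shared with the IL-10 receptor, was at 10.48, 10.59, 9.55, 11.00 and 10.73 with stretch and at 10.46, 10.14, 10.06 and 10.78 without. Stretch replicate 3 was the lowest of all 9 arrays and stretch replicate 4 the highest, which is the reverse of their places in Il20ra. The log2 change was 0.11 (95% interval -0.49 to 0.71; limma adjusted p = 0.90). Il22ra2, the soluble IL-22 decoy, had very low signal (percentile 12.1), with values from 2.98 to 3.54 with stretch and from 2.95 to 3.21 without. Its log2 difference of 0.07 (95% interval -0.28 to 0.42) took the opposite sign without stretch replicate 5 (-0.016).

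Correlations over the 9 arrays were computed for all 36 pairs of the 9 genes. After Benjamini-Hochberg adjustment over the pairs 0 passed by Pearson's r or Spearman's rho, and 10 and 8 had an unadjusted exact permutation p under 0.05. The 10 are given here, each also as r without the 2 arrays farthest from the median of the first gene (the smaller set). Among the receptors, Il20ra and Il20rb had r = 0.79 (exact permutation p = 0.011, adjusted p = 0.11) and rho = 0.77 (exact permutation p = 0.021, adjusted p = 0.15), with r = 0.79 on the smaller set. Il20ra and Il22ra1 had r = 0.78 (exact permutation p = 0.015, adjusted p = 0.11) and rho = 0.77 (exact permutation p = 0.021, adjusted p = 0.15), with r = 0.60 on the smaller set. Il20rb and Il22ra1 had r = 0.79 (exact permutation p = 0.01, adjusted p = 0.11) and rho = 0.68 (exact permutation p = 0.05, adjusted p = 0.2), with r = 0.72 on the smaller set. These 3 pairs among Il20ra, Il20rb and Il22ra1 were positive, while the next 2 pairs, with Il10rb, were negative. Il20ra and Il10rb had r = -0.71 (exact permutation p = 0.028, adjusted p = 0.13) and rho = -0.72 (exact permutation p = 0.037, adjusted p = 0.17), with r = -0.44 on the smaller set. Il22ra1 and Il10rb had r = -0.68 (exact permutation p = 0.044, adjusted p = 0.16) and rho = -0.72 (exact permutation p = 0.037, adjusted p = 0.17), with r = -0.54 on the smaller set.

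The r of the ligand gene Il24 was negative with Il20ra, Il20rb and Il22ra1 and positive with Il10rb, none past the adjusted threshold. Il24 and Il20ra, the pair of smallest p, had r = -0.88 (exact permutation p = 0.0019, adjusted p = 0.07) and rho = -0.88 (exact permutation p = 0.0031, adjusted p = 0.11), with r = -0.93 on the smaller set. Il24 and Il22ra1 had r = -0.80 (exact permutation p = 0.016, adjusted p = 0.11) and rho = -0.80 (exact permutation p = 0.014, adjusted p = 0.15), with r = -0.68 on the smaller set. Il24 and Il20rb had r = -0.75 (exact permutation p = 0.019, adjusted p = 0.12) and rho = -0.82 (exact permutation p = 0.011, adjusted p = 0.15), with r = -0.57 on the smaller set. For Il24 and Il10rb the values were r = 0.72 (exact permutation p = 0.027, adjusted p = 0.13) and rho = 0.73 (exact permutation p = 0.031, adjusted p = 0.17), with r = 0.69 on the smaller set. Il20 and Il20ra had r = 0.71 (exact permutation p = 0.035, adjusted p = 0.14) and rho = 0.47 (exact permutation p = 0.21, adjusted p = 0.61), with r = 0.18 on the smaller set, so this r rests on the 2 arrays left out. No array had an Il24 value between 7.33 and 8.82, so each r with Il24 includes the step between its low and its high arrays. After subtraction of group means, a description with no test, r was 0.67, 0.67 and 0.69 for the 3 pairs among Il20ra, Il20rb and Il22ra1. For Il24 it was -0.81, -0.70 and -0.55 with Il20ra, Il22ra1 and Il20rb, and 0.90 with Il10rb. These values keep stretch replicate 3, which among the stretched arrays had the lowest Il24 and Il10rb and the highest Il20ra. The smaller sets of these Il24 pairs kept it too, and r without it was not computed.

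**Figure D3:**
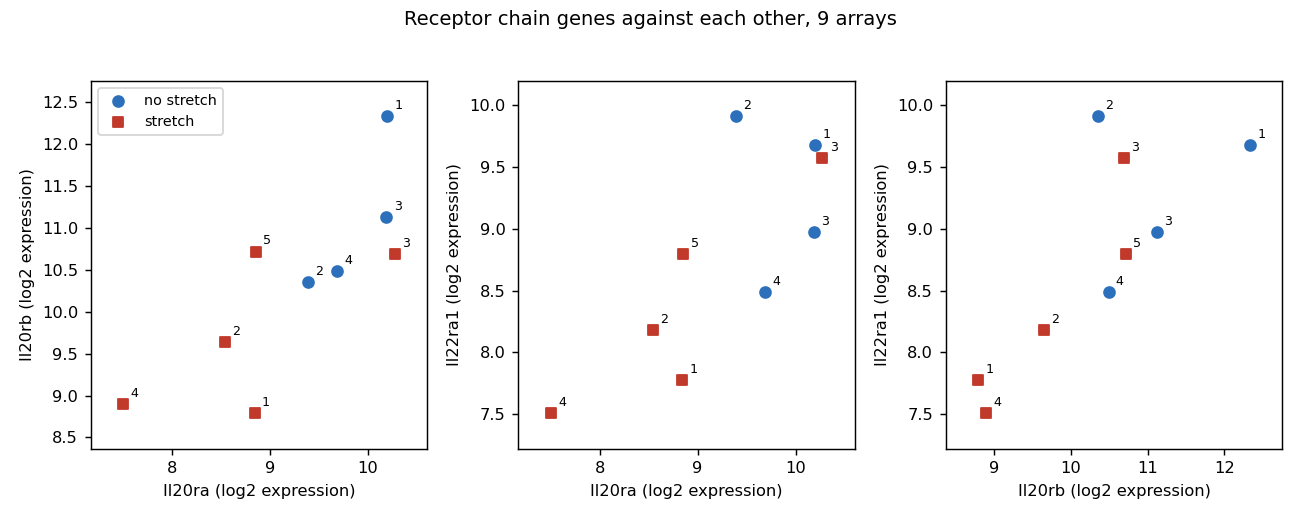
Log2 expression of Il20ra, Il20rb and Il22ra1 plotted against each other on the 9 arrays, without stretch (blue circles) and with stretch (red squares), with replicate numbers. Stretch replicates 1, 2 and 4 lie at the lower left of each panel, and stretch replicate 3 lies among the arrays without stretch.

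The likest genes were found by the Pearson r over all 9 arrays, a description with no test that includes the difference between the groups. For Il24 they were Stc1, the hormone stanniocalcin (0.97), Cks1b, a cell cycle kinase subunit (0.96), and Loxl3, a lysyl oxidase-like enzyme (0.96). For Il19 they were the keratinocyte antigen gene Ly6d (0.94) and the stefin genes Csta1 (0.93) and Csta3 (0.92). For Il20ra they were the serine protease gene Tmprss4 (0.98), Pdzd2 (0.98) and Fam107a (0.97), for Il20rb Rtn1, Irx2 and Tlcd2 (0.98, 0.98 and 0.97), and for Il22ra1 the creatine transporter gene Slc6a8, Dennd2d and Hmgcs1, an enzyme of cholesterol synthesis (0.98 each). Il10rb was most like Cep170 (0.95), the lysosomal precursor gene Psap (0.95) and the cholesterol transporter gene Abca1 (0.95). For the genes of low signal the leaders were Glipr1l2, Acp6 and Gtsf1l for Il20 (0.97, 0.97 and 0.96), Rpl14, Slc16a4 and Fhl4 for Il22 (0.93, 0.92 and 0.89), and Commd9, Spag5 and Actrt1 for Il22ra2 (0.92, 0.91 and 0.90). No gene was on more than 1 of these lists.

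Il19, Il20 and Il24 lie next to each other on chromosome 1, between Fcmr and Il10, in the RefSeq table of GRCm38.p6. The log2 changes along this stretch were 0.04 for Fcmr, 1.86 for Il24, -0.31 for Il20, 0.39 for Il19, 0.38 for Il10 and 0.37 for Mapkapk2, a kinase gene. Only the interval of Il24 excluded 0 among these 6, and whether Il24 differed from its neighbours was not tested. On chromosome 10, Il22ra2 and Il20ra lie side by side next to Ifngr1, a chain of the interferon-gamma receptor, with log2 changes of 0.07, -1.06 and 0.54. Il10rb lies on chromosome 16 between Ifnar2 (0.82) and Ifnar1 (0.34), the chains of the type I interferon receptor, followed by Ifngr2 (0.41). Ifng, which encodes interferon-gamma, lies past Iltifb from Il22 and had a log2 difference of 1.03 (limma adjusted p = 0.22). Of 36 measured neighbours of the 9 genes, up to 3 on each side, 0 passed limma's test. At an unadjusted p under 0.05, 8 were higher and 1 lower, against 6.92% and 6.07% of all genes. Their median change was 0.10, against -0.003 over all genes, and the smallest adjusted p belonged to Myom3, a sarcomere gene beside Il22ra1 (log2 change 1.15, limma adjusted p = 0.077).

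Signalling genes downstream of these receptors gave no call. Of 10 measured JAK-STAT and feedback genes 0 passed limma's test, with a median log2 change of 0.11. At an unadjusted p under 0.05, 2 were higher and 0 lower, against 6.92% and 6.07% of all genes. Socs3, a feedback inhibitor induced by STAT3, was at 5.57, 7.14, 6.53, 7.69 and 7.51 with stretch and at 5.35, 5.37, 4.56 and 6.18 without. All stretched arrays lay above the mean of the other group, and the groups overlapped at stretch replicate 1 (log2 change 1.53, SE 0.43, limma adjusted p = 0.16). Jak2, which serves many cytokine receptors, was higher on all 5 stretched arrays than on any other (0.89, SE 0.26, limma adjusted p = 0.18). Over all genes, 4.54% did not overlap between the groups, in either direction. Tyk2, a kinase that IL10RB uses, stood at -0.22 and Stat3 itself at -0.01.

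The epidermal genes that these cytokines are known to induce included 1 call. Defb14, a beta-defensin, rose 5.17-fold (log2 change 2.37, SE 0.37, limma adjusted p = 0.032), where 0.0820% of all genes passed as higher. It did not overlap between the groups, as was so for 4.54% of all genes in either direction. It was 1 of 16 measured members of the list, of which 5 were higher at an unadjusted p under 0.05 (6.92% of all genes). Of the 16, 11 had a positive change, with a median of 0.53. This call was lost (0 of the 16) in 5 of the 9 fits that omitted 1 array, namely each of stretch replicates 2 and 5 and of no-stretch replicates 1 to 3. Cxcl5, a neutrophil chemokine, had a log2 difference of 4.29 (limma adjusted p = 0.077), and Saa3, an acute-phase protein gene, of 1.70 (limma adjusted p = 0.18). The genes of terminal differentiation, which these cytokines are known to lower, gave 0 calls of 9 by limma. Among the 9, 4 were lower at an unadjusted p under 0.05, against 6.07% of all genes. All 9 changes were negative, with a median of -0.82, and 1 gene, Hrnr, did not overlap between the groups (4.54% of all genes). Of these changes that of Krt1 was only -0.06. Krt1 had the highest mean of all genes (percentile 100) and was near 19.9 on every array but stretch replicate 4 (19.62), so its sign carries little weight. The barrier protein genes Flg2, Lor and Hrnr stood at -1.74, -0.98 and -0.83 (limma adjusted p = 0.17, 0.21 and 0.31).

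Genes known to induce Il19, Il20 and Il24 gave 0 calls of 10 by limma. Against 6.92% of all genes, 3 of the 10 were higher at an unadjusted p under 0.05. These were Il1b, Il6 and Osm, with log2 changes of 3.71, 4.19 and 1.81 and limma adjusted p = 0.070, 0.076 and 0.15. The title of the series names Il1b and Il6, so these 2 are no independent choice. Without stretch replicate 3 the number of calls was 3, and without no-stretch replicate 4 it was 1. In stretch replicate 3 Il1b (11.68), Il6 (8.70), Osm (5.07) and Il13 (3.76) were at their lowest of the 5 stretched arrays. The list was not uniform there: Il17a (4.97), Il17c (4.85) and Il17f (5.27) were at their highest, and Tnf, Il4 and Tslp lay between. Of the 7 measured genes tied to IL-22 induction and its producing cells 0 passed, with a median change of -0.04. In that list 1 was higher and 1 lower at an unadjusted p under 0.05, against 6.92% and 6.07% of all genes. Il23r, the IL-23 receptor chain of IL-22 producing cells, stood at -0.65 (SE 0.22, limma adjusted p = 0.24), the T cell factor gene Batf at 0.49 and the chemokine receptor gene Ccr6 at -0.52. The related IL-10 family and class II cytokine receptor genes also gave 0 calls of 10, but 5 were higher at an unadjusted p under 0.05 and 0 lower, with a median of 0.39. Among them Il10ra, the ligand-binding IL-10 receptor chain, stood at 0.64, and the interferon-gamma receptor genes Ifngr1 and Ifngr2 at 0.54 and 0.41 (limma adjusted p between 0.25 and 0.30). Ifnar2, Ifngr1 and Ifngr2, all higher without adjustment, are also among the higher chromosomal neighbours above, so the counts are not independent.

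**Figure D4:**
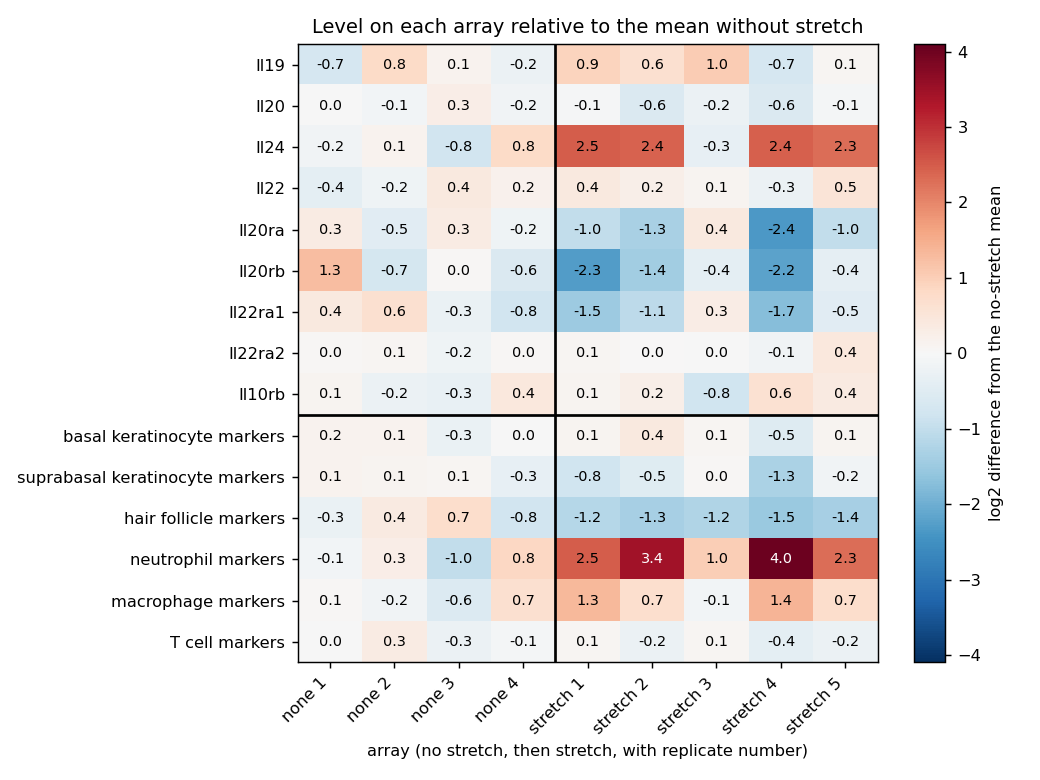
Log2 difference of each array from the mean without stretch, for the 9 genes (upper rows) and for the mean of 6 marker lists (lower rows); the 4 arrays without stretch are on the left and the 5 stretched arrays on the right. On stretch replicate 3 Il24, Il20ra, Il20rb and Il22ra1 stay near the mean without stretch.

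Cell type markers moved beside these values. Over all genes, 6.92% were higher and 6.07% lower at an unadjusted p under 0.05, the background for the marker counts here and in the next paragraph. Markers of suprabasal keratinocytes, which express the receptor chains, were negative in 6 of 6 genes with 0 calls by limma and 2 lower at an unadjusted p under 0.05. Their mean relative to the group without stretch ran from -1.29 to 0.04 with stretch and from -0.32 to 0.14 without. Krt1, Krt10 and Dsc1 of these markers are also among the differentiation genes above, so the lists are not independent. The sign of Krt1 carries little weight here too. The mean over the 5 receptor genes ran from -1.16 to -0.10 with stretch and from -0.22 to 0.43 without. Basal keratinocyte markers were positive in 4 of 7 genes (0 calls by limma, 2 higher at an unadjusted p under 0.05; mean from -0.52 to 0.39 with stretch and from -0.26 to 0.15 without). Hair follicle markers were negative in 6 of 6, and Lhx2 and Krt73 passed as lower (limma adjusted p = 0.029 and 0.044), as 0.164% of all genes did. Their mean ran from -1.54 to -1.17 with stretch and from -0.80 to 0.72 without.

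Neutrophil markers were positive in 6 of 6, with 0 calls by limma, 6 higher at an unadjusted p under 0.05 and a median change of 2.30. Their mean ran from 1.00 to 4.01 with stretch and from -0.997 to 0.84 without. Macrophage markers were positive in 6 of 6 (0 calls by limma, 2 higher at an unadjusted p under 0.05; mean from -0.11 to 1.41 with stretch and from -0.57 to 0.67 without). T cell markers, the main source of IL-22 among these, were positive in 1 of 6 with 0 calls by limma and 0 at an unadjusted p under 0.05; their mean ran from -0.39 to 0.09 with stretch and from -0.25 to 0.34 without. Markers of natural killer and innate lymphoid cells, another source of IL-22, were positive in 3 of 5 (0 calls by limma, 1 higher at an unadjusted p under 0.05; mean from -0.16 to 0.85 with stretch and from -0.46 to 0.26 without). Among the remaining lists, the fibroblast gene Dpt and the melanocyte genes Pmel and Dct fell (limma adjusted p = 0.025, 0.026 and 0.031), and all 6 fibroblast and all 4 melanocyte markers were negative. No marker was listed at 0, and the part of any of these cell types in the values of the 9 genes was not tested.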

How the data were processed

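Total RNA of 9 skin samples (6 ug each, per the labels' protocols) was labelled with biotin and hybridised by the manufacturer's standard protocol. The deposited values are log2 expression for 22206 features, made with RMA and Transcriptome Analysis Console, per the submitters' processing notes. RMA can compress low values, so changes of dim genes may be understated, which was not tested here. Genome build, annotation version and filters were not given in the sources used here. The platform table named 19572 features and 2634 were unnamed; of several rows of a gene (55 genes) the one of highest mean was kept. No 2 arrays were identical.

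Stretch minus no stretch was fitted over all genes by limma 3.58.1 under R 4.3.3 (lmFit, eBayes; two-sided tests, Benjamini-Hochberg adjustment, no covariate); the number of arrays limits the precision. On simulated data with 200 of the 19505 genes changed, the share recovered was 41.5% at 2-fold, 92.0% at 4-fold and 97.0% at 8-fold. The simulated noise was normal and independent between genes and arrays, with no outlying array, and the changed genes were picked at random. These shares may therefore overstate recovery on the real arrays and do not give the chance of a call for the 9 genes. Correlations were tested by exact permutation over 362880 arrangements. Alternatives covered scaling, filters, variance models, array weights, a replicate block, other thresholds and omission of arrays. The 9 genes, the gene lists, the motifs and the omission of 2 arrays together were chosen with earlier results of these data known. Named were all 9 genes, list members past the threshold or among the 3 of smallest p, the 3 likest genes (predicted genes passed over) and the measured neighbours; other genes named, such as Stat3, were chosen after their values were seen. List members not found under their name were not analysed here.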

Additional observations from a re-analysis of the deposited data

Results flagged for a closer look

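One array stood apart from its group in 10 of 144 sets of values (72 genes, each in both groups), by the gap to its nearest neighbour relative to the whole range; chance flags about 1 in 20. Among the 9 genes it was Il24, at 6.20 on stretch replicate 3 against 8.82 to 9.03 on the other stretched arrays. On the same array the kinase gene Tyk2 was low at 8.40, the macrophage receptor gene Csf1r was low at 11.73, and the lymphocyte genes Ccr6 and Ncr1 were high at 4.17 and 8.03. Jak2 was low on no-stretch replicate 3 (10.57), H2-Aa on stretch replicate 4 (11.53), and Tek and Acta1 on stretch replicate 1 (6.28 and 17.02). Col1a2 was high on no-stretch replicate 4 (16.11).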

How the results depend on the processing

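Under every alternative run, 0 of the 9 genes passed, except without stretch replicate 3, where Il24 did. Leaving out single arrays gave 0 to 1 calls among the 9 genes and 2 to 195 among all genes (48 on all arrays). It moved the log2 change of Il24 between 1.60 and 2.41 (1.44 without stretch replicate 1 and no-stretch replicate 3 together), of Il10rb between -0.021 and 0.34 and of Il22ra2 between -0.016 and 0.13, so the last 2 have no settled sign; the other 7 genes kept their direction in every alternative that gave a value. All genes past the threshold numbered 75 after quantile normalization, 105 and 103 without the dimmest 25% or 50% of genes, 157 with array weights, 15 without stretch replicate 1 and no-stretch replicate 3, and 211 at an adjusted p of 0.1; the cause was not tested. Same-numbered samples of the 2 groups had correlations of deviations from -0.062 to 0.34, and only stretch replicate 4 was closest to the same number. The labels do not tie them, and these correlations do not settle whether the numbers pair samples. With the replicate number as a block, in which stretch replicate 5 has no partner and adds nothing, 221 of all genes passed, Il24 stood at 1.75 (limma adjusted p = 0.060) and Il22ra2 at -0.016, and calls numbered 3 among the induced epidermal genes, 1 among the differentiation genes and 2 among the inducers of Il19, Il20 and Il24. The induced epidermal genes held 2 calls without the dimmest 50% of genes, 0 without the 2 arrays together and 0 to 2 without single arrays. The inducers held 1 call with array weights, 1 and 2 without the dimmest 25% or 50% of genes and 0 to 3 without single arrays. Il20, Il22 and Il22ra2 have no value under either filter, since they lie in the dimmest 25%. Without scanner signals, whether these 3 genes lay above background cannot be assessed from log2 values alone.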
